A study of Homo sapiens with 6 samples.

Results

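The genes described were 8 transcription factors of the interferon regulatory factor (IRF) and signal transducer and activator of transcription (STAT) families, namely IRF1, IRF2, IRF3, IRF7, IRF9, STAT2, STAT3 and STAT6. They were taken by name from a table of 33451 genes by a rule that sets no limit on their values, although earlier results of these data were known when they were chosen, and 8 of 8 passed the filter on low counts, which kept 18183 genes. The cells were MDA-MB-453, an established human breast cancer line, kept for 5 days in 100 nM 25(OH)D, the circulating form of vitamin D (called EG in the study), or in the alcohol used as its solvent (CG, called control here). Each group had 3 mRNA libraries of 33268860 to 40928176 counts, all from this single line, and no allele or other agent was named for either group. The study describes its samples as biological replicates, and the labels do not say whether they were separate cultures, so the p-values measure the spread between these libraries.

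Mitochondrial genes took 7.85% to 7.99% of the counts in control and 8.89% to 9.24% in 25(OH)D, and their part in the results was addressed only by leaving them out of the table, which changed no call on the 8 genes. All 11 epithelial and apocrine breast markers averaged above 1 CPM, the count scaled to a shared depth, and the summed level of the oestrogen and progesterone receptor genes ESR1 and PGR was at most 0.312 CPM. The summed level of 9 immune markers was 4.76 to 6.29 CPM in control and 13.8 to 19.9 CPM in 25(OH)D, of which CD68, a lysosomal gene that is not limited to macrophages, made 4.93 and 15.9 CPM on average. The leukocyte marker PTPRC had at most 6 counts in any library and the T cell marker CD3E at most 2. Summed fibroblast markers, almost all COL1A1, ranged from 36.5 to 39.0 CPM and from 32.0 to 34.8 CPM, and endothelial markers summed to at most 1.03 CPM. In such bulk samples a smaller share of expressing cells cannot be told apart from less RNA per cell.

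STAT proteins wait in the cytoplasm until a cytokine receptor and its attached Janus kinase (JAK) phosphorylate them, after which they pair and enter the nucleus. STAT2 and IRF9 belong to ISGF3, a complex that forms after type I interferon and binds the interferon-stimulated response element (ISRE), whereas pairs of STAT proteins, such as those of STAT3 after cytokines of the interleukin-6 family, bind the gamma-activated site (GAS). IRF3 and IRF7 are switched on by sensors of foreign nucleic acid, IRF1 activates interferon-responsive promoters at which IRF2 can act as a repressor, and STAT6 answers interleukin-4 and interleukin-13. Much of this control acts on the proteins, which mRNA counts do not measure.

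The DNA these factors bind is shown first, as background to the target genes listed below. Promoters of 300 bases (250 before and 50 after the start of the gene) came from RefSeq on GRCh38.p14 and were present for 5 of the 8 genes, IRF1, IRF9, STAT2, STAT3 and STAT6. Both strands were searched for the ISRE core, which is GAAA, any 2 bases and GAAA again, and for the GAS TTCNNNGAA, where N is any base. The motifs may overlap each other. A gene counted where any of its promoters held the motif. GAS letters were present in 2 of the 5 genes, against 9.38% of 27305 genes with a promoter. ISRE core letters were present in 0 of 5, against 4.38%. So few genes cannot be compared with these shares. The GAS of IRF1 lay 124 to 116 bases before the start, and that of IRF9 lay 63 to 55 bases before it, inside an exon of the count table. These sites are printed with 6 bases on either side, in the direction of the gene, with the motif in capitals:
IRF1, chr5:132490883-132490903, minus strand: cctgatTTCCCCGAAatgacg
IRF9, chr14:24161196-24161216, plus strand: cgtgatTTCTGGGAAaaggcc

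The 225 bases that precede the IRF1 exon of the count table, chr5:132490799-132491023 on the minus strand, show the surroundings of that GAS (capitals) in the member with the lowest level. The stretch ends at that exon, which begins 25 bases before the RefSeq start from which the distances above were counted:
IRF1 upstream: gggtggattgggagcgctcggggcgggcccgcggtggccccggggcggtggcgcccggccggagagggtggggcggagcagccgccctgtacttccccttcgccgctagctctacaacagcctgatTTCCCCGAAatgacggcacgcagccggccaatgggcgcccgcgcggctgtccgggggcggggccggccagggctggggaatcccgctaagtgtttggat

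Among 34 listed ISGF3 target genes with a promoter, 25 (73.5%) held the ISRE core there, as did 13 of 18 (72.2%) listed interferon gamma targets. Both lists were made of well-known interferon-induced genes, so that this share describes the lists and is no result about 25(OH)D. IFI6 and ISG15, the ISGF3 targets with the smallest p-values, held 3 and 2 such cores, and 2 of these are shown with the core in capitals together with the single core that PARP9 and DTX3L share:
IFI6, chr1:27672292-27672313, minus strand: agagggGAAAATGAAActgcag
ISG15, chr1:1013384-1013405, plus strand: gaaaggGAAACCGAAActgaag
PARP9 and DTX3L, chr3:122564326-122564347: ggaagcGAAACTGAAActttgc

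After 25(OH)D, STAT2, STAT3, IRF9 and IRF3 rose, none of the 8 genes fell, and IRF1, IRF2, IRF7 and STAT6 did not pass the test. A gene was called where the quasi-likelihood test of edgeR gave an adjusted p under 0.05, the adjustment (Benjamini-Hochberg) running over all 18183 genes. By this rule 33.8% of all genes were called, 17.3% higher and 16.5% lower, beside 4 of 8 called here, so that a called gene was common in these libraries. The changes were small. Of the 8 genes, 0 passed the study's limits of an absolute log2 fold change over 1 with an unadjusted p under 0.05, which 6.65% of all genes passed. For 4 of the 8 genes every library of one group lay beyond every library of the other, 3 higher and 1 lower, beside 45.7% of all genes. The median log2 fold change of the 8 genes was 0.15, beside -0.01 over all genes tested.

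**Figure D1:**
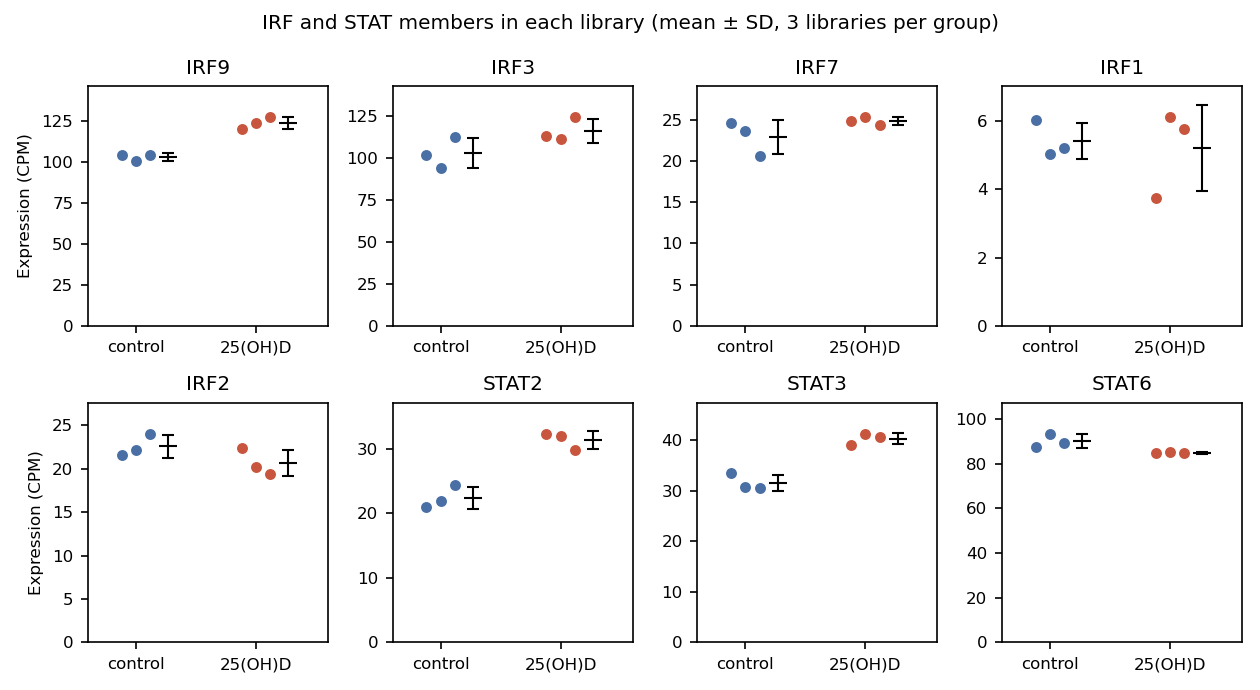
Level of each of the 8 genes in CPM (vertical axis) in the 3 control and 3 25(OH)D libraries, with a point for each library and the group mean with its SD. The libraries of the groups do not overlap for STAT2, STAT3 and IRF9, which were higher, and for STAT6, whose 25(OH)D libraries lie between 84.6 and 85.1 CPM.

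STAT2, the DNA-bound activating subunit of ISGF3 (chr12:56341597-56360155 on GRCh38, minus strand), changed most. Its levels were 20.9, 21.9 and 24.3 CPM in control and 32.3, 31.9 and 29.8 CPM in 25(OH)D. Every 25(OH)D library lay above every control library. The mean ± SD of the 3 libraries was 22.4 ± 1.75 CPM in control and 31.4 ± 1.34 CPM in 25(OH)D, which is 1.40-fold. On the log2 scale the fold change was 0.49 (SE 0.0725, 95% interval 0.33 to 0.64, adjusted p = 1.10e-04 with edgeR).

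IRF9, the subunit through which ISGF3 recognises the ISRE (chr14:24161053-24166565, plus strand), had 104.1, 100.2 and 104.2 CPM in control and 120.2, 123.3 and 127.1 CPM in 25(OH)D. The groups did not overlap. Its log2 fold change was 0.26 (SE 0.0429, 95% interval 0.17 to 0.36, adjusted p = 2.41e-04 with edgeR). Of its 3794 exon bases, 1838 (48.4%) are also exon bases of RP11-468E2.4 on the same strand, so that reads from these bases cannot be told apart by strand. That gene rose by 0.26 on the log2 scale (adjusted p = 2.08e-04 with edgeR), with 4753, 4157 and 4208 counts in control and 4655, 5222 and 4433 in 25(OH)D.

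STAT3, which carries signals of the interleukin-6 family and of growth factors (chr17:42313324-42388568, minus strand), also rose. Its levels were 33.5, 30.7 and 30.6 CPM in control and 39.1, 41.3 and 40.7 CPM in 25(OH)D. The highest control library stayed below the lowest 25(OH)D library. The log2 fold change was 0.35 (SE 0.0611, 95% interval 0.22 to 0.48, adjusted p = 4.28e-04 with edgeR), or 1.28-fold. No other gene of the table shared exon bases with STAT2 or STAT3.

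STAT6, the factor of interleukin-4 signalling (chr12:57095408-57132139, minus strand), had 87.4, 93.4 and 89.4 CPM in control and 84.7, 85.1 and 84.6 CPM in 25(OH)D. The 25(OH)D libraries all lay below the control libraries, as 22.9% of all genes did, and the SD was 3.07 CPM in control and 0.258 CPM in 25(OH)D. The log2 fold change of -0.09 (SE 0.0452, 95% interval -0.18 to 0.01, adjusted p = 0.164 with edgeR) did not pass the test. STAT6 shares 69 exon bases with NAB2 and 59 with LRP1, both on the opposite strand and with log2 fold changes of -0.76 and -0.42. With scaling by library sizes alone STAT6 passed, at -0.13 (adjusted p = 0.0389), and with upper-quartile factors as well (adjusted p = 0.0457).

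**Figure D2:**
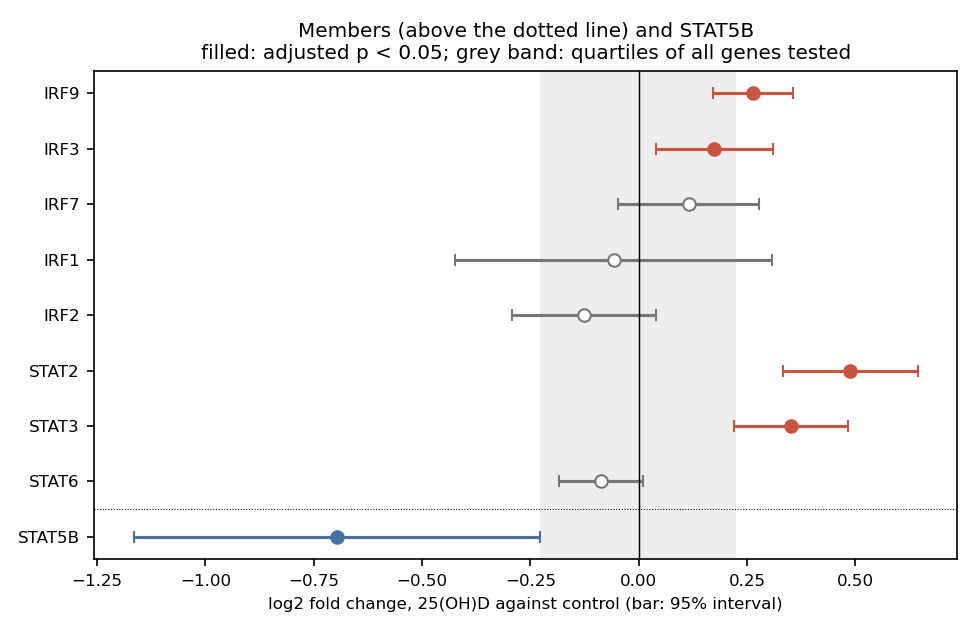
Log2 fold change of 25(OH)D against control (horizontal axis) for the 8 genes and, under the dotted line, STAT5B, with the 95% interval of edgeR's fit as bars, filled points for called genes and a grey band for the quartiles of all genes. Of the 8, STAT2 has the largest value at 0.49 and IRF2 the lowest at -0.13, and the intervals of IRF1, IRF2, IRF7 and STAT6 include 0.

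IRF3, the factor that the kinases TBK1 and IKKε activate after DNA or RNA sensing (chr19:49659569-49665875, minus strand), had 102, 94.2 and 112 CPM in control and 113, 111 and 124 CPM in 25(OH)D. The groups overlapped, since control replicate 3 lay above 25(OH)D replicate 2. Its log2 fold change of 0.17 (SE 0.0625, 95% interval 0.04 to 0.31) passed the test narrowly (adjusted p = 0.0443 with edgeR). The call was lost with library sizes alone (0.13, adjusted p = 0.112), and when control replicate 1, control replicate 2, 25(OH)D replicate 1 or 25(OH)D replicate 3 was left out (adjusted p = 0.0813, 0.199, 0.0606 and 0.125). IRF3 shares 734 of its 3794 exon bases (19.3%) with BCL2L12 on the opposite strand, whose log2 fold change was 0.16 (adjusted p = 0.0829 with edgeR). The kit keeps strand, but the strand setting of the counting is not given in the sources used here.

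IRF7, the main inducer of interferon alpha genes (chr11:612553-615999, minus strand), had 24.6, 23.6 and 20.6 CPM in control and 24.9, 25.3 and 24.4 CPM in 25(OH)D. The groups overlapped through control replicate 1. The log2 fold change was 0.12 (SE 0.0756, 95% interval -0.05 to 0.28, adjusted p = 0.270 with edgeR). The interval includes 0 and reaches a 1.21-fold rise, so that neither no change nor a rise of the size seen for IRF9 (1.20-fold) was excluded.

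IRF1 (chr5:132481609-132490798, minus strand) was the least expressed of the 8 genes and the most variable. It had 251, 190 and 192 counts in control and 132, 235 and 188 in 25(OH)D, or 6.03, 5.02 and 5.21 CPM against 3.76, 6.11 and 5.77 CPM. In CPM both the lowest and the highest library belonged to 25(OH)D, while control replicate 1 had the highest count. The log2 fold change of -0.06 (SE 0.170, 95% interval -0.42 to 0.31, adjusted p = 0.830 with edgeR) was positive without 25(OH)D replicate 1 (0.14) or control replicate 1 (0.03), and the interval spans changes as large as that of IRF9 in either direction.

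IRF2 (chr4:184387713-184474580, minus strand) had 21.5, 22.1 and 24.0 CPM in control and 22.4, 20.2 and 19.4 CPM in 25(OH)D. The groups overlapped through 25(OH)D replicate 1. Its log2 fold change was -0.13 (SE 0.0772, 95% interval -0.29 to 0.04, adjusted p = 0.237 with edgeR). The ratio of IRF1 to IRF2, in RPKM (reads scaled to exon length and library total), was 0.112, 0.0908 and 0.0868 in control and 0.0671, 0.121 and 0.119 in 25(OH)D (two-sided exact permutation p = 0.8). These groups overlapped, and no difference of this activator to its opposing factor was detectable.

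The 8 genes spanned a wide range of levels per length. In control the order by RPKM was IRF9 (27.5 ± 0.567), IRF3 (27.5 ± 2.30), STAT6 (12.5 ± 0.441), IRF7 (8.86 ± 0.840), IRF2 (7.34 ± 0.387), STAT2 (3.71 ± 0.273), STAT3 (3.64 ± 0.196) and IRF1 (0.705 ± 0.0708), each SD over 3 libraries. Libraries of IRF9 and IRF3 overlapped, as did those of STAT2 and STAT3, while the other neighbours were apart in every library. The order was the same in 25(OH)D, where STAT2 (5.05 ± 0.234) and STAT3 (4.51 ± 0.151) no longer overlapped. IRF9 moved from percentile 90.5 to 91.9 of the tested genes by level, STAT2 from 55.3 to 62.7, STAT3 from 54.8 to 60.2 and IRF1 from 22.3 to 21.3. Reads shared with other genes bear on the levels of IRF9 and IRF3.

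**Figure D3:**
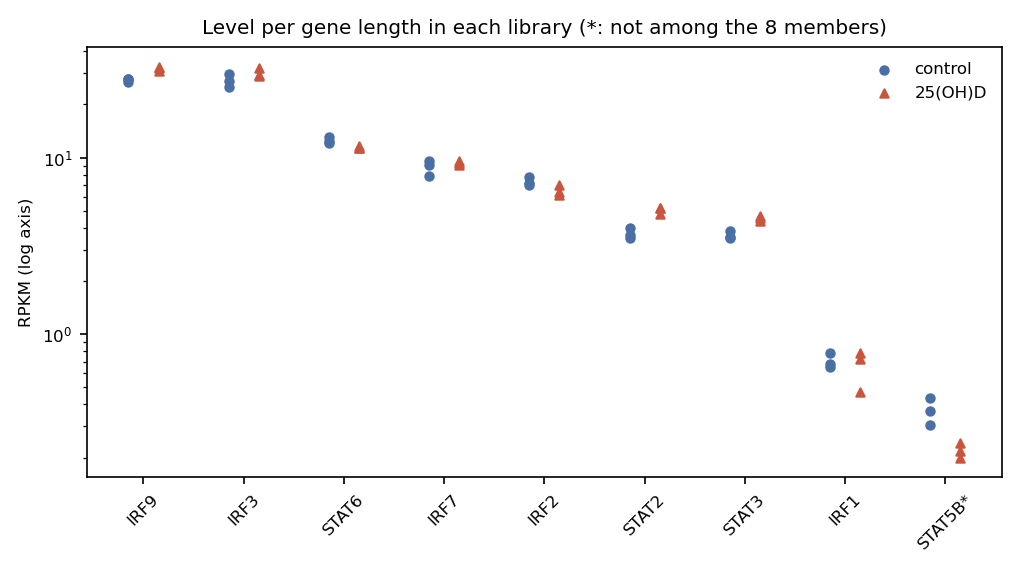
RPKM on a log axis for the 8 genes and, marked by a star, STAT5B in each of the 6 libraries. Of the 8, IRF9 and IRF3 stand together at the top with means of 27.5 RPKM in control, and IRF1 stands at the bottom with 0.705 RPKM.

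The ratio of the partners IRF9 and STAT2 was 8.02, 7.37 and 6.90 in control and 5.99, 6.22 and 6.86 in 25(OH)D, in RPKM. All 25(OH)D values were below all control values, 6.86 only just. The log2 ratio differed by -0.22 (two-sided exact permutation p = 0.1, the smallest that 3 against 3 can give), so that this design could not bring the ratio under 0.05. Single-gene permutation tests had the same limit, with p = 0.1 for IRF9, STAT2, STAT3 and STAT6, 0.2 for IRF3 and IRF7, 0.3 for IRF2 and 0.9 for IRF1.

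Over the 6 libraries, which share 2 groups and so carry the treatment difference, the log2 CPM of IRF9 had a Pearson correlation of 0.97 with STAT3, 0.92 with STAT2 and -0.89 with STAT6. Among 9137 other genes with a mean of at least 10 CPM, those most like STAT2, the member with the smallest p, were STAG1 (r = 0.999), PCCA (0.998), CHMP3 (0.997), NAA16 (0.997) and MAN2B2 (0.996). Their own log2 fold changes were 0.17, 0.51, 0.23, 0.22 and 0.46. These are descriptions of 6 points.

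**Figure D4:**
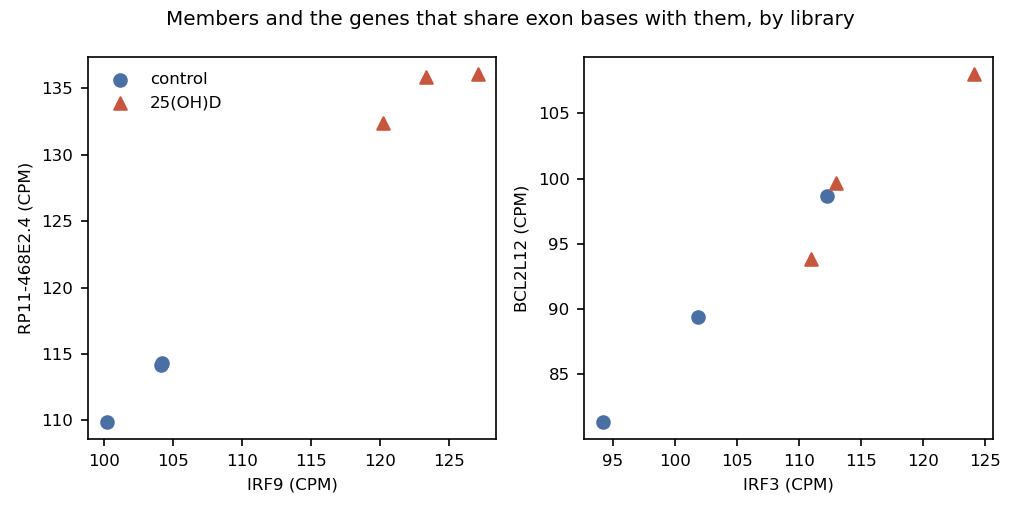
CPM of IRF9 (left) and IRF3 (right) on the horizontal axes against CPM of RP11-468E2.4 and BCL2L12, the genes that share exon bases with them, with a point for each of the 6 libraries. The points of each pair lie close to a line, with a correlation in log2 CPM of 0.995 for IRF9 and 0.987 for IRF3.

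Of the other family members listed, STAT5B, which carries prolactin and growth hormone signals, fell from 81, 88 and 102 counts to 56, 50 and 47 (log2 fold change -0.70, SE 0.218, adjusted p = 0.0234 with edgeR), a call lost when control replicate 2, control replicate 3, 25(OH)D replicate 2 or 25(OH)D replicate 3 was left out. IRF5 had 0 to 6 counts in every library, STAT5A 0 to 8, and STAT4 had 0 in each control library and 4, 6 and 4 in 25(OH)D, all below the filter. IRF4 and IRF8, factors of lymphoid and myeloid cells, were not listed in the table.

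The share of called genes among the receptors that feed these factors was near that of all genes. Of 17 listed interferon and cytokine receptors, 13 were tested, 3 rose, 2 fell and 8 did not pass (38.5% called, beside 33.8% of all genes), with a median log2 fold change of 0.14. IFNGR1, the ligand-binding chain for interferon gamma, rose from 23.3 ± 0.477 to 35.5 ± 2.58 CPM (log2 fold change 0.61, adjusted p = 7.92e-06 with edgeR). IL13RA1, a chain for interleukin-13, rose by 0.42 (adjusted p = 0.00148), and IL6ST, the signalling chain shared by the interleukin-6 family, by 0.62 (adjusted p = 0.0492) at 44 to 78 counts, a call lost under 7 of the 9 alternatives that kept all libraries and, with 1 library left out, in each case but control replicate 2. OSMR, the oncostatin M receptor, fell by 0.82 on the log2 scale (adjusted p = 0.00773). IL4R, the chain through which interleukin-4 reaches STAT6, had 16, 37 and 18 counts in control and 5, 8 and 9 in 25(OH)D (log2 fold change -1.55, SE 0.504, adjusted p = 0.0285 with edgeR). That call was lost under 2 of the 9 alternatives that kept all libraries, and without control replicate 2, 25(OH)D replicate 1 or 25(OH)D replicate 2. IL13RA1 and IL4R thus had changes of opposite direction, that of IL4R at low counts.

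JAK1, the kinase attached to most of these receptors, rose from 33.2 ± 2.16 to 39.1 ± 1.86 CPM (log2 fold change 0.24, SE 0.0661, adjusted p = 0.0125 with edgeR). The call on JAK1 was lost under 2 of the 9 alternatives that kept all libraries, and without control replicate 3 or 25(OH)D replicate 1. JAK2 (0.13, adjusted p = 0.493) and TYK2 (-0.13, adjusted p = 0.144) did not pass. JAK3, the kinase of lymphocytes, had at most 4 counts in any library. The 1 call among 3 tested kinases is a share like that of all genes (33.8%).

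Ligands were hardly seen. In a list of 21 interferon genes, added after the target lists had been examined, 6 were listed in the table, 0 passed the filter, and the highest count in any library was 5, a level too low to compare the groups. Of 9 other cytokines that act on these receptors, 7 were listed and only IL11 was tested, with 21, 42 and 20 counts in control and 17, 20 and 15 in 25(OH)D (log2 fold change -0.55, adjusted p = 0.330 with edgeR).

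Upstream of IRF3 and IRF7, 17 of 18 nucleic acid sensing genes were tested, of which 6 rose, 2 fell and 9 did not pass (47.1% called, beside 33.8% of all genes, median log2 fold change 0.16). DDX58, which encodes the RNA sensor RIG-I, rose from 75.1 ± 7.96 to 141 ± 10.3 CPM (log2 fold change 0.91, adjusted p = 1.68e-07 with edgeR). IFIH1, which encodes the RNA sensor MDA5, rose by 0.48 (adjusted p = 4.99e-05), and IRAK1, a kinase of Toll-like receptor signalling, by 0.31 (adjusted p = 1.78e-05). TRAF3, an adaptor on the way to IRF3, and IKBKE, which encodes IKKε, fell by 0.35 (adjusted p = 0.00513) and 0.24 (adjusted p = 0.0139) on the log2 scale, and the call on IKBKE was lost without control replicate 2, control replicate 3 or 25(OH)D replicate 2. DDX58 and IFIH1 are themselves interferon-induced genes.

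Among 20 negative regulators, all tested, 3 rose, 6 fell and 11 did not pass (45% called, beside 33.8% of all genes, median log2 fold change 0.03). SOCS3, a feedback inhibitor induced by STAT3, had 44, 30 and 50 counts in control and 164, 231 and 179 in 25(OH)D (log2 fold change 2.33, SE 0.206, adjusted p = 6.67e-07 with edgeR). No library of either group came near the other. SOCS2 and CISH, feedback inhibitors best known downstream of STAT5, fell from 8.24 ± 0.261 to 2.78 ± 0.678 CPM (log2 fold change -1.56) and from 25.0 ± 0.760 to 16.8 ± 1.02 CPM (-0.57), with adjusted p = 2.49e-06 and 2.58e-05. USP18, which restrains the type I interferon receptor and is interferon-induced, rose by 0.57 (adjusted p = 6.67e-06). PIAS1, a SUMO ligase that inhibits STAT signalling, fell by 0.29 on the log2 scale (adjusted p = 0.00100), and PTPN11, a phosphatase, rose by 0.10 (adjusted p = 0.0492), a call lost under 6 of the 9 alternatives that kept all libraries and, with 1 library left out, in each case but control replicate 1.

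**Figure D5:**
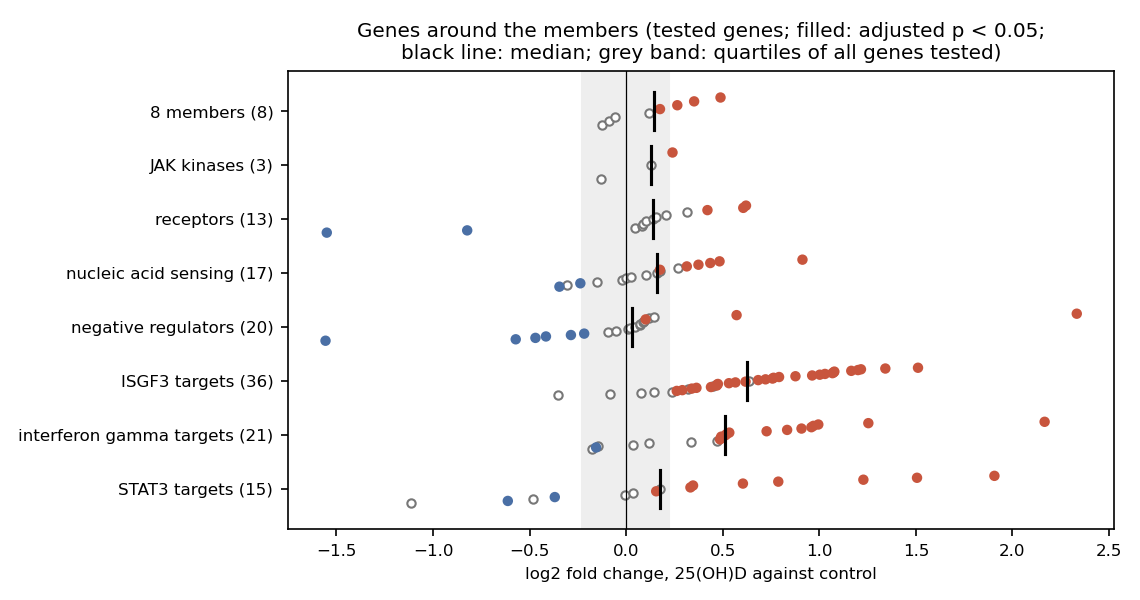
Log2 fold change of 25(OH)D against control (horizontal axis) for the 8 factors and the tested genes of 7 pathway lists, with a point for each gene, filled where called, a black line at the median and a grey band for the quartiles of all genes. The median is 0.63 for the ISGF3 targets and 0.51 for the interferon gamma targets, beside 0.15 for the 8 factors and -0.01 for all genes. The lists were written with earlier results of these data known.

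Most listed targets of ISGF3 rose. This list, like the others, was written with earlier results of these data known, so that its share of calls is only a description. Of 40 genes 36 were tested, 28 rose, 0 fell and 8 did not pass (77.8% called, beside 33.8% of all genes), with a median log2 fold change of 0.63 and 10 genes past the study's limits. IFI6, an interferon-induced mitochondrial protein, went from 64.1, 55.0 and 49.4 CPM to 142, 142 and 143 CPM (log2 fold change 1.34, adjusted p = 3.21e-09 with edgeR). ISG15, a ubiquitin-like protein, went from 52.9 ± 6.59 to 122 ± 10.6 CPM (1.20, adjusted p = 3.83e-08), and HERC6, a ubiquitin ligase, from 18.9 ± 2.07 to 43.9 ± 4.95 CPM (1.22, adjusted p = 1.40e-07). Summed over the 36 genes, the level was 2589, 2360 and 2271 CPM in control and 3720, 3632 and 3305 CPM in 25(OH)D. Control replicate 1 was the highest control in 30 of the 36 genes, yet its sum stayed below that of every 25(OH)D library.

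Of the ISGF3 targets with a promoter, the ISRE core was present in 18 of 24 (75%) that rose and in 5 of 6 (83.3%) not called. With only 6 genes not called, in a list made of interferon-induced genes, this cannot show whether the core bears on which targets rose. IFIT5, a binder of viral RNA that was picked after its values were seen, held 3 cores and had a log2 fold change of 0.14 (adjusted p = 0.178 with edgeR). HERC5, the ISG15 ligase, picked in the same way, also held 3 and had a value of -0.36 (adjusted p = 0.130). PARP9 and DTX3L, whose proteins form a complex and whose genes lie head to head over the core printed above, were picked afterwards as well. PARP9 rose by 0.44 (adjusted p = 5.67e-06), whereas DTX3L had a value of 0.08 (adjusted p = 0.339). The RPKM ratio of PARP9 to DTX3L was 1.87, 1.90 and 1.90 in control and 2.49, 2.38 and 2.41 in 25(OH)D, without overlap (two-sided exact permutation p = 0.1, the smallest possible).

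Of 28 listed interferon gamma targets, at many of which IRF1 acts, 21 were tested, 14 rose, 1 fell and 6 did not pass (71.4% called, beside 33.8% of all genes, median log2 fold change 0.51). HLA-B, a class I antigen-presenting chain, had 171, 178 and 174 CPM in control and 336, 348 and 342 CPM in 25(OH)D (log2 fold change 0.97, adjusted p = 7.55e-11 with edgeR). HLA-C rose by 0.96 (adjusted p = 2.01e-10) and HLA-E by 0.91 (adjusted p = 3.62e-09), and reads of these related genes may be split between them in a way the counting does not show. WARS, a tryptophanyl-tRNA synthetase, fell by 0.16 on the log2 scale (adjusted p = 0.0452), a call lost under 4 of the 9 alternatives that kept all libraries and, with 1 library left out, in each case but 25(OH)D replicate 1. The mRNA of IRF1 itself did not pass the test.

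STAT3 targets were mixed. Of 23 listed genes 15 were tested, 8 rose, 2 fell and 5 did not pass (66.7% called, beside 33.8% of all genes, median log2 fold change 0.18). JUNB, a component of the AP-1 factor, rose from 45.2 ± 1.13 to 78.0 ± 0.984 CPM (log2 fold change 0.79, adjusted p = 1.57e-08 with edgeR), BCL2L1, which restrains apoptosis, by 0.33 (adjusted p = 4.90e-05), and CCND1, a cyclin of the G1 phase, from 366 ± 22.6 to 465 ± 27.2 CPM (0.35, adjusted p = 9.64e-05). VEGFA, an angiogenic factor, fell from 327 ± 12.3 to 214 ± 2.77 CPM (-0.61, adjusted p = 2.06e-08) and HSPB1, a small heat shock protein, from 74.2 ± 6.67 to 57.4 ± 4.11 CPM (-0.37, adjusted p = 7.70e-04).

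Only 5 of 19 listed STAT6 targets were tested, of which 4 rose and 1 fell (100% called, beside 33.8% of all genes). BCL6, a repressor that opposes STAT6 at shared sites, rose from 9.64 ± 0.385 to 22.2 ± 0.491 CPM (log2 fold change 1.20, adjusted p = 2.21e-08 with edgeR). XBP1, a factor of the unfolded protein response that is also a luminal breast gene, fell from 7947 ± 133 to 5412 ± 97.3 CPM (-0.55, adjusted p = 1.98e-09). IGHE, the constant region of immunoglobulin E, had 0, 0 and 2 counts in control and 314, 316 and 240 in 25(OH)D, and CHI3L1, a chitinase-like protein, had 1, 2 and 1 counts against 22, 23 and 28. Both genes passed the low-count filter only through their 25(OH)D libraries, so that being tested and being higher were tied in advance. The rise of IGHE was also known beforehand. The count of 4 that rose is therefore no result about the list. With control counts this low, no fold is given for IGHE or CHI3L1.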

How the data were processed

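The authors deposited whole-number counts of reads per gene, without normalization, and RPKM values that are the counts divided by exon length and library total. Per the labels, the submitters' processing notes name Trimmomatic 0.36, featureCounts of Subread 1.5.1, edgeR 3.12.1 and GRCh38. The aligner, annotation release and strand setting are not given in the sources used here. Of 50952 count values from 1 to 15, 66.9% were even, so some read pairs may have been counted as 2 reads. Depth was 33268860 to 40928176 counts, which limits precision at low counts.

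Libraries were grouped by label, 3 against 3. Counts were fitted with edgeR 4.0.16 in R 4.3.3 (TMM, low-count filter at a minimum count of 10, quasi-likelihood test, no covariate). CPM values use TMM-scaled library sizes. The biological coefficient of variation was 0.0788. The code was tested on simulated data. No libraries were duplicates (chi-square per gene 4.01 to 12.1). Alternatives were other scalings, no filter, no mitochondrial genes, DESeq2 1.42.0, limma 3.58.1 on log2(RPKM + 1) and log2(RPKM + 0.1), a replicate block, and each library left out. Ratios were compared by exact permutation. Named genes were the 8 members, other IRF and STAT genes, the JAK kinases, the 3 smallest p-values per direction in each list, IGHE, exon-sharing genes and the 5 most like the member with the smallest p. CD68, the marker genes, the ligands, IFIT5, HERC5, PARP9 and DTX3L were named outside this rule. The members and lists were chosen with earlier results of these data known. Further genes covered by the rule are not reported here.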

Additional observations from a re-analysis of the deposited data

How the results depend on the processing

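Of 31 results recomputed under 9 alternatives with all libraries (2 for the ratios) and with each of the 6 libraries left out, 19 kept their direction and, for single genes and ratios, their side of the threshold, or, for counts of calls, stayed within 1.5 times the main count. Log2 fold changes stayed at 0.21 to 0.29 for IRF9, 0.36 to 0.56 for STAT2 and 0.25 to 0.40 for STAT3, with every adjusted p under 0.05. IRF3 lost its call at 0.13 with library sizes alone, upper-quartile factors and limma on log2(RPKM + 0.1) or log2(RPKM + 1) (adjusted p = 0.112, 0.123, 0.198 and 0.200), and ranged from 0.12 to 0.25 with a library left out. STAT6 became a call at -0.13 with library sizes alone and with upper-quartile factors, which made 1 member lower. These scalings moved the median of all genes by -0.04 at most, and the higher share of all calls from 51.1% to 42.3% and 42.8%, and the limma fits to 43.2% and 43.0%. IRF1 reversed to 0.14 without 25(OH)D replicate 1 and to 0.03 without control replicate 1 (range -0.19 to 0.14). The log2 ratio of IRF1 to IRF2 (0.04) reversed to -0.03, -0.10 and -0.09 without control replicate 3, 25(OH)D replicate 2 and 25(OH)D replicate 3 (range -0.10 to 0.32). The cause of each was not tested.

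Among counts within that range, members called higher were 3 to 4, receptors 2 to 3, negative regulators 2 to 3, sensing genes 4 to 7 and STAT3 targets 6 to 8, and the replicate block ended the calls on IL6ST and PTPN11. Other counts moved further. STAT5B, another family member, was called lower or not (0 to 1 call) with a library left out. Receptors called lower were 1 in both limma fits and 1 to 3 with a library left out. JAK kinases called higher were 0 in both limma fits and 0 to 1 with a library left out. Interferon gamma targets called lower were 0 with DESeq2, RLE factors, no filter and no mitochondrial genes, and 0 to 1 with a library left out. With a library left out, sensing genes called lower were 1 to 2, negative regulators called lower 3 to 5 (3 without 25(OH)D replicate 2), and ISGF3 targets called lower 0 to 1. Replicate numbers did not pair the libraries (correlations of same-numbered libraries -0.07, -0.01 and -0.05). The replicate block called 5953 genes against 6142 and changed no call on the 8 members, and under it the ratio of IRF9 to STAT2 had p = 0.25 by an exact sign-flip test, the smallest possible. Depth limits IRF1, IL4R, IL6ST and the genes under the filter, and 3 libraries a group cannot bring an exact test under 0.1.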
